A study of Mus musculus with 13 samples.

Results

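At day 9 of reprogramming, 2964 genomic sites carried both NCoR and SMRT and overlapped no peak of either co-repressor in embryonic stem cells (ESCs). They lay beside H3K27ac of ESCs or of the starting fibroblasts. The members were chosen by measured peaks of 4 co-repressor and 2 H3K27ac lists. They were found by merging the NCoR and SMRT peaks of the day 9 cultures into 5972 sites, keeping those that overlapped intervals of both lists and no ESC co-repressor interval, and requiring an H3K27ac interval of ESCs or mouse embryonic fibroblasts (MEFs) centred within 1 kb of the site centre. The 2964 sites, called members here, made up 49.6% of the day 9 sites and were drawn from 10024 merged co-repressor sites of ESCs and day 9 cultures together. Day 9 sites with both co-repressors numbered 4067, of which 944 overlapped an ESC site. A member overlapped no interval of the ESC lists, but such an interval could lie nearby. Of the members, 2387 had no ESC co-repressor interval centred within 1 kb. No NCoR or SMRT list of MEFs was analysed here, so whether a member was already occupied in MEFs cannot be told.

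The data were ChIP-seq peak lists of mouse cells, 1 library per group, so no value has a spread between replicates and no test between conditions was made. H3K27ac was mapped in cultures of C57BL/6J-OG2 MEFs that received OSKM (the factors OCT4, SOX2 and KLF4 with c-MYC) by virus together with HDAC3-YF, a deacetylase-null mutant of the histone deacetylase HDAC3, at days 5, 9 and 13, and in matching cultures with a FLAG control plasmid. NCoR and SMRT were mapped in OSKM cultures at day 9 for which the labels name neither plasmid, and in untreated C57BL/6J ESCs kept with LIF and small-molecule inhibitors. H3K27ac was also mapped in untreated ESCs and in untreated C57BL/6J-OG2 MEFs. OSKM cultures are mixtures in which few cells complete reprogramming, so a peak in 1 list and not in another can reflect more cells, more mark per cell or a deeper library, which cannot be told apart.

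NCoR and SMRT are paralogous scaffold proteins that hold HDAC3 in a repressor complex and switch on its deacetylase activity. They reach DNA through unliganded nuclear receptors, REV-ERB clock receptors, BCL6 and other factors, and are best known for removing acetyl groups from histones near genes that are to be kept down. H3K27ac is an acetylation of histone H3 at active promoters and enhancers and a substrate of this complex. The series set out to ask whether the co-repressors, with c-MYC, form a barrier to reprogramming, and HDAC3-YF was used to take the deacetylase activity out.

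The labels were checked on marker genes by counting peaks of H3K27ac from 20 kb before to 20 kb after each gene. The 8 ESC markers held 57 peaks in ESCs and 4 in MEFs, and the 8 MEF markers held 50 in MEFs and 4 in ESCs. In OSKM cultures the ESC markers held 5 to 8 peaks, and the MEF markers 10 to 23. The H3K27ac lists held 14251 to 16944 intervals in OSKM cultures, 25499 in ESCs and 26591 in MEFs, and read depth is unknown. The MEF markers held 23 peaks with HDAC3-YF and 16 with FLAG at day 5, 10 and 21 at day 9, then 10 and 14 at day 13.

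Most members lay at gene starts, and 5 promoters show the range of sequences around them. The 250 bases before the start are given 5′ to 3′ on the gene's strand, from RefSeq GRCm38.p6, in which the coordinates are those of mm10. Capitals mark matches on either strand to the motifs searched, with overlapping matches run together. These were the E-box of letters CACGTG, the CCAAT box, the GC box of letters GGGCGG, the ETS site of letters CCGGAAG, the NRF1 site of letters GCGCATGC, the YY1 core of letters AAGATGG and the CTCGCGAG element. Positions relative to a gene start are negative before it and positive inside the gene. The first, of a ribosomal protein gene, and the second, of a nucleolar growth gene, stand for members acetylated in every list. Cdkn2a encodes cell cycle inhibitors that restrain reprogramming. Snai1 and Mical2 stand for members acetylated in MEFs and not in ESCs.
Rps21: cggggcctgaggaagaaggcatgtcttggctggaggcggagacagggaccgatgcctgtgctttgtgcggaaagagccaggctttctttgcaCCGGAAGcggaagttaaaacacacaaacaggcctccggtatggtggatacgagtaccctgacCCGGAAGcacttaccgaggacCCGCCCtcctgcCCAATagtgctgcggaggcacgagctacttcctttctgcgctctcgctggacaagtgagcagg
Gnl3: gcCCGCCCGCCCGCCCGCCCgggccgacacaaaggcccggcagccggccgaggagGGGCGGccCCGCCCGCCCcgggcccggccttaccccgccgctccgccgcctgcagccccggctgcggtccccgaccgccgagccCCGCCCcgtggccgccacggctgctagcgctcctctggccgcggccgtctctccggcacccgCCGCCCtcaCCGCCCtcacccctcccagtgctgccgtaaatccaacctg
Cdkn2a: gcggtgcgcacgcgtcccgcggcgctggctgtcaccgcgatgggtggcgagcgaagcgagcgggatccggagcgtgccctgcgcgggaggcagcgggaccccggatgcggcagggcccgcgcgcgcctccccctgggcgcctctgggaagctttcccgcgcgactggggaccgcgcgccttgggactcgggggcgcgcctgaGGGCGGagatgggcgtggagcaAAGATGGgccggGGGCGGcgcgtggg
Snai1: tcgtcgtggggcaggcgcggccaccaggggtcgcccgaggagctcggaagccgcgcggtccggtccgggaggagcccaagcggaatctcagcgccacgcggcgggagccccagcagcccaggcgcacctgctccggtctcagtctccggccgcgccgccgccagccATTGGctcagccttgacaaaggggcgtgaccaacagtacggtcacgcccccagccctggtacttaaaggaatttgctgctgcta
Mical2: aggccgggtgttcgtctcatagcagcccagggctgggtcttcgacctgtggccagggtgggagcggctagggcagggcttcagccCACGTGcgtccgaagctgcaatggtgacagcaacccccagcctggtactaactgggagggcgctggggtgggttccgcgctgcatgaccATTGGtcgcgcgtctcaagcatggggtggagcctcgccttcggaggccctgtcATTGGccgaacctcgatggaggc
The Rps21 stretch (chr2:180257199-180257448, plus strand) held 2 ETS sites, 1 GC box and 1 CCAAT box, and the member (chr2:180257326-180257525) covered its last 123 bases. The Gnl3 stretch (chr14:31019132-31019381, minus strand) held 10 GC boxes, and the member (chr14:31019045-31019244) was centred at -14 bp. The Cdkn2a stretch (chr4:89294620-89294869, minus strand) held 2 GC boxes and 1 YY1 core, with 40 CpG dinucleotides. The Snai1 stretch (chr2:167537945-167538194, plus strand) held 1 CCAAT box, and 142 of its bases lay in the member at chr2:167537887-167538086. The Mical2 stretch (chr7:112225586-112225835, plus strand) held 1 E-box and 2 CCAAT boxes.

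Across promoter windows of 250 bases before to 50 after the start, those with a member within 1 kb were richer in CpG and in certain motifs than acetylated promoters without a co-repressor site. The 2777 windows at members had a median of 26 CpG dinucleotides and 64.7% G+C, against 19 and 60.0% in 5974 windows that had ESC or MEF H3K27ac and no co-repressor site of either cell population. All 21263 windows had medians of 13 and 56.3%. Motifs were searched on both strands. The ETS site was in 24.2% of windows at members, 15.0% of acetylated windows without a site and 11.6% of all windows. In the same order, the YY1 core was in 8.64%, 5.59% and 6.24%, the NRF1 site in 6.59%, 4.25% and 3.52% and the CTCGCGAG element in 3.10%, 1.24% and 1.24%. The GC box was in 74.5%, 62.8% and 46.2%. These 5 motifs were more frequent at members than in either of those sets, with 95% Wilson intervals that did not overlap. Set beside NCoR-only, SMRT-only and shared sites, none of them was most frequent at members. The ETS site was in 24.4% of windows at NCoR-only sites, 19.3% at SMRT-only and 22.8% at shared sites, the NRF1 site in 7.71%, 5.66% and 10.0%, the YY1 core in 9.67%, 7.97% and 10.1%, the CTCGCGAG element in 3.14%, 2.83% and 3.31% and the GC box in 71.0%, 75.8% and 74.7%. The core motif of nuclear receptors (AGGTCA) was in 9.47% of windows at members, 12.6% of acetylated windows without a site and 14.7% of all windows. The TATA box (TATAAA) was in 5.37%, 6.85% and 12.6%, the AP-1 site (TGANTCA) in 4.00%, 5.22% and 6.99%, the CCAAT box in 34.6%, 39.1% and 38.2% and the octamer (ATGCAAAT) in 1.04%, 1.62% and 1.66%. These shares were all lower at members. Against acetylated windows without a site, the intervals of the TATA box, the AP-1 site and the octamer overlapped. Those of the nuclear receptor motif and the CCAAT box did not. The CRE (TGACGTCA) and the E2F site (TTTCCCGC) had higher shares at members than in acetylated windows without a site or all windows. Their intervals for members and acetylated windows without a site overlapped. The E-box, which c-MYC binds, was in 11.0% (95% Wilson interval 9.87 to 12.2), 10.1% (9.32 to 10.8) and 7.84%, with overlapping intervals for members and acetylated windows without a site. A match is a string of letters and not a bound site. Base composition moved with these shares, and its part in them was not tested. Of the members with an oriented start, 24.4% were centred inside such a window.

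Members sat just inside genes. Of the 2964, 2654 (89.5%; 95% Wilson interval 88.4 to 90.6) were centred within 1 kb of a protein-coding gene start, or of either annotated end where no strand was at hand. Over the 2218 members with an oriented start, the median position was 123 bp after the start, with quartiles of 1 bp before and 228 bp after it. Centres lay after the start at 74.8% of them, and 58.3% fell in the first 300 bp of the gene. Head-to-head pairs, in which genes on opposite strands start back to back within 1 kb of the site, were found at 261 members (8.81%). Away from protein-coding starts were 310 members, of which 183 lay inside a protein-coding gene, 91 within 1 kb of an end of a non-coding gene and 42 over 50 kb from any start.

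Compared with the other day 9 sites, members were near genes about as often as the 1185 sites shared with ESCs, and more often than sites with a single co-repressor. The shared sites were taken whatever their co-repressor or H3K27ac, while single co-repressor sites met the same H3K27ac rule as members. Within 1 kb of a gene were 89.5% of members, 83.8% of the 841 acetylated day 9-specific sites with NCoR only, 81.5% of the 453 with SMRT only and 90.2% of the shared sites. The difference was 5.71 points to NCoR-only sites (95% Newcombe interval 3.11 to 8.56), 8.08 to SMRT-only sites (4.58 to 12.1) and -0.67 to shared sites (-2.61 to 1.44). The 529 day 9-specific sites without ESC or MEF H3K27ac were near a gene at 12.9%. Head-to-head pairs stood at 8.81% of members, 6.54% of NCoR-only sites, 3.09% of SMRT-only sites and 8.35% of shared sites. The median position after the start was 123 bp for members, 36 bp for NCoR-only, 158.5 bp for SMRT-only and 164 bp for shared sites.

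**Figure D1:**
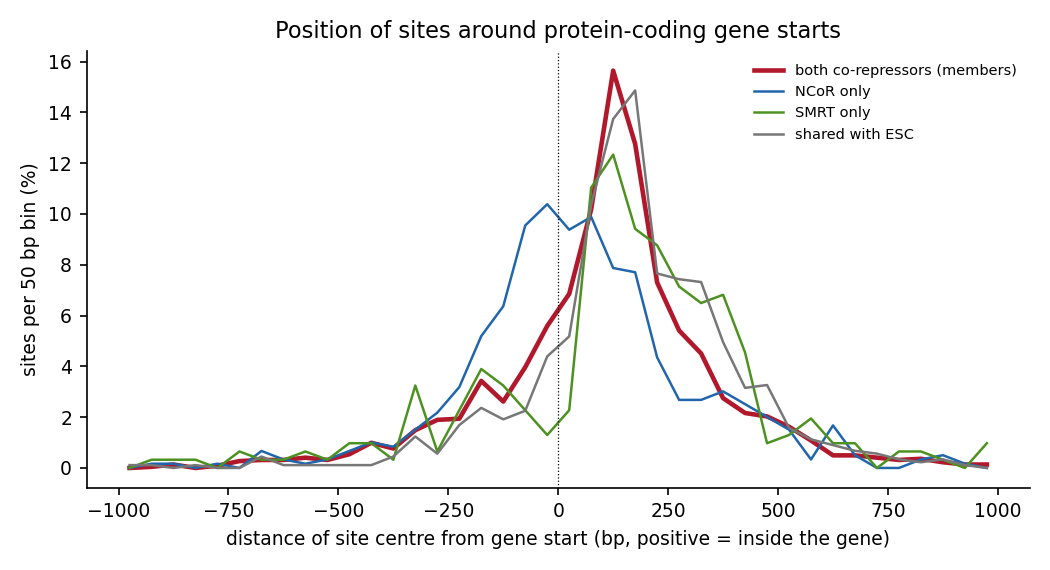
Distance of site centres from the nearest protein-coding gene start (x, bp, positive inside the gene) against the percentage of oriented sites in each 50 bp bin (y), for members, NCoR-only, SMRT-only and ESC-shared day 9 sites. Members peak just after the start with a median of 123 bp, between NCoR-only sites at 36 bp and SMRT-only sites at 158.5 bp.

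Among members the position also varied with the deposited co-repressor score. An interval found in both lists carried 1 score in both, from -0.97 to 0.99 over the 2928 members with an identical interval, and the score took 188 distinct values. The sources do not state its scale, and whether it is a height or a ratio between both libraries is unknown, so high and low refer only to its value. It ran from -0.65 to 3.31 at sites with NCoR only and from -2.85 to 0.65 at sites with SMRT only. Over the whole day 9 lists it ran from -0.98 to 3.31 for NCoR and from -2.85 to 0.99 for SMRT. Lying in both lists therefore bounds the score of a member. Divided by score into 4 groups of 688 to 775, the members had a median position, from the highest to the lowest scores, of 85, 112, 127 and 162 bp after the start. The share of members centred before the start was 33.3%, 27.1%, 21.5% and 19.0% in the same order. Head-to-head pairs were at 12.5% (10.2 to 15.2), 7.61%, 9.20% and 6.38% (4.83 to 8.38), which did not fall in order through the middle groups. Across the 2193 oriented members with a score, Spearman's rho between score and position was -0.14, given as a description because sites share libraries and scores. H3K27ac at the same members did not follow this order: at day 9 the nearest interval had a median position of 161.5, 190, 165 and 181 bp with HDAC3-YF, and 168, 181, 171.5 and 190 bp with FLAG.

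**Figure D2:**
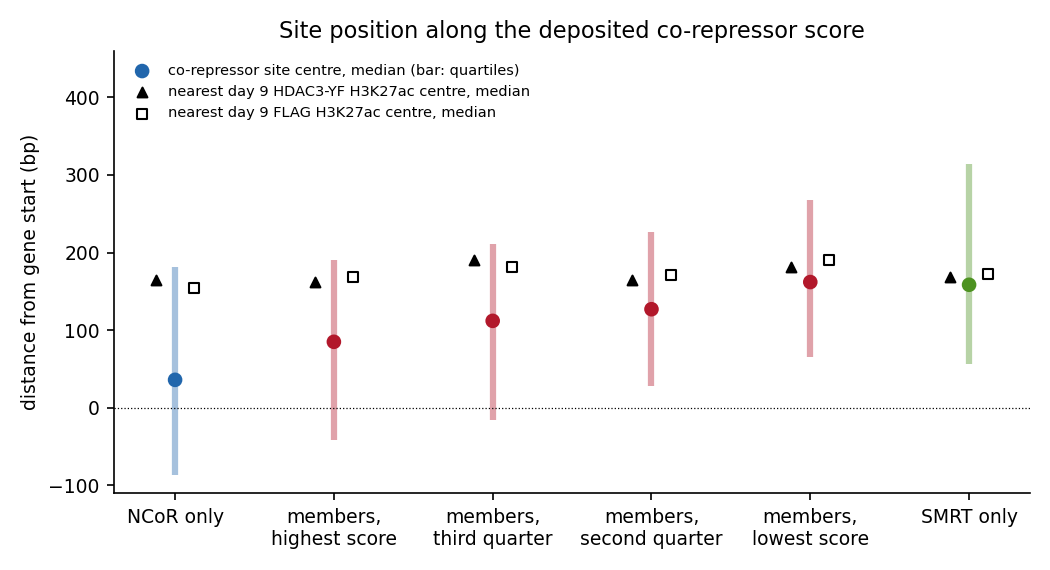
Median distance from the gene start (y, bp) of co-repressor site centres (circles, bars are quartiles) and of the nearest day 9 H3K27ac centre with HDAC3-YF (triangles) and FLAG (open squares), for NCoR-only sites, the members in 4 groups by deposited score from highest to lowest, and SMRT-only sites. Site medians run from 36 to 162 bp across the groups, while the H3K27ac medians lie between 154 and 190 bp in all 6.

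The extremes of the score lay mostly at gene starts. The lowest belonged to members at Polg2, a subunit of the mitochondrial DNA polymerase, Ddb1, Mapk6 and Nbeal1 and to 1 whose nearest gene was Cyrib, with scores of -0.97 to -0.96. The highest, 0.99, was shared by 10 members, among them those at Aimp1, Klf3, Ppat, Srsf7, Efcab2, Tnrc6a and Arntl, the last encoding the core clock activator BMAL1. All of those named had H3K27ac in ESCs, MEFs and every OSKM list, except Ppat, which had no day 13 FLAG peak.

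H3K27ac of ESCs and MEFs was part of the rule and describes the members only. Both had a peak within 1 kb at 2816 members (95.01%), MEFs alone at 88 and ESCs alone at 60. By overlap, 54.5% of members touched an ESC interval and 55.4% a MEF interval. The members nearest to the 1 kb limit on its inner side had Tent4a, Igf2bp1, Snai1, Jph4 and Cracd as nearest genes, with the closest ESC or MEF centre 967 to 990 bp away. The first sites outside had Junb, Tsc22d2, Derl3, Tpbg and Ccne2 as nearest genes and had it 1004 to 1055 bp away.

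The OSKM libraries were not part of the rule, and nearly all members were acetylated in them. A peak within 1 kb was found at day 5 in 93.3% of members with HDAC3-YF (92.3 to 94.1) and 94.6% with FLAG (93.7 to 95.3). At day 9 the shares were 93.8% (92.8 to 94.6) with HDAC3-YF and 95.3% (94.5 to 96.0) with FLAG, and at day 13 they were 94.1% (93.2 to 94.9) with HDAC3-YF and 93.5% (92.6 to 94.4) with FLAG. In all 6 OSKM lists were 2571 members (86.7%), where 76.9% of all 5972 day 9 sites were, and in none were 35 (1.18%), where 9.09% of all day 9 sites were. The 5972 include the 529 sites without ESC or MEF H3K27ac. Intervals on all shares cover counting error only and treat sites as independent.

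Sites with a single co-repressor were less often acetylated in OSKM cultures than members. Members exceeded NCoR-only sites by 4.82 to 7.29 points and SMRT-only sites by 7.65 to 14 points over the 6 libraries, and no interval of these differences included 0. Against ESC-shared sites the differences ran from -0.84 to 0.85 points and every interval included 0. By overlap of 1 bp they were below the shared sites in all 6 libraries, by -7.99 to -4.33 points with no interval that included 0, for example 54.6% (52.8 to 56.4) of members and 62.6% (59.8 to 65.3) of shared sites at day 13 with HDAC3-YF. With HDAC3-YF at day 5 the shares were 93.3% of members, 87.0% of NCoR-only, 79.2% of SMRT-only and 92.6% of shared sites.

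**Figure D3:**
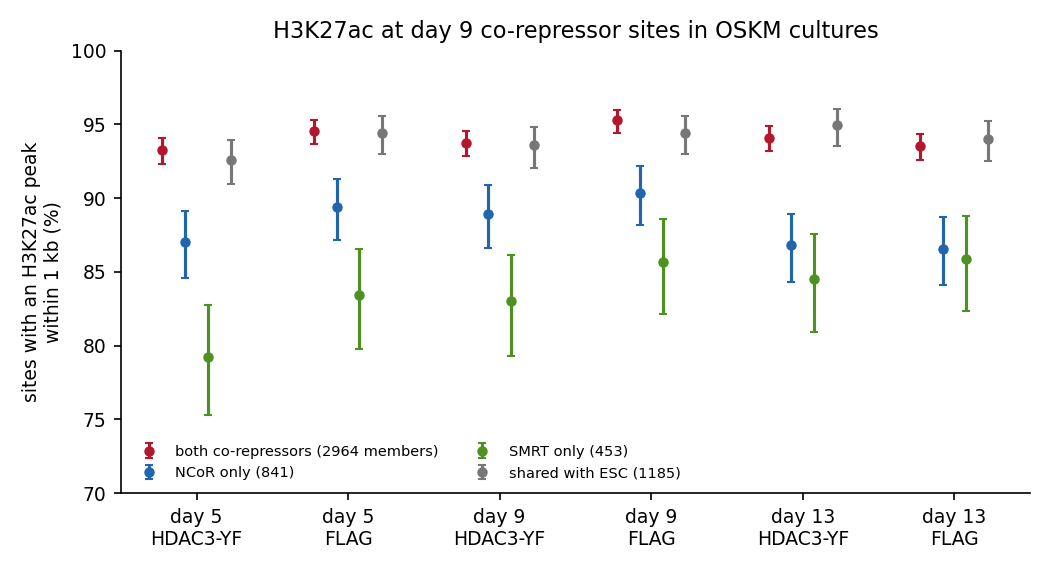
Percentage of sites with an H3K27ac peak centred within 1 kb (y, axis from 70%) in each OSKM library (x), for members, NCoR-only, SMRT-only and ESC-shared day 9 sites; bars are 95% Wilson intervals. Members and shared sites lie between 92.6% and 95.3% in all 6 libraries, above both kinds of sites with 1 co-repressor.

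The H3K27ac peak at a member lay close to the co-repressor site. The nearest centre was a median of 162 to 171 bp away in the 8 lists, and 56.9% to 60.2% of oriented members with a peak had it within 200 bp. Its median position was 33 to 55.5 bp further into the gene. Only peaks within 1 kb were counted, and the rule sets that limit for an ESC or MEF interval. Part of this closeness is therefore built in, and distances at other day 9 sites were not set beside it. The best peak at a member scored high within its list, as did that at other acetylated day 9 sites. The best score within 1 kb had a median of 104 with HDAC3-YF and 106 with FLAG at day 9, against 25.1 and 24.2 over all intervals of those lists, and it reached the ceiling of 200 at 29.9% and 30.1% of acetylated members. At day 9 with HDAC3-YF the median was 79.8 at NCoR-only, 71.2 at SMRT-only and 122 at shared sites. At day 13 the medians at members were 43.2 with HDAC3-YF and 39.1 with FLAG, against 16.5 and 15.7 over the lists. The best score is the highest of all intervals centred within 1 kb, while list medians are over single intervals. These measures are unlike, since a highest value rises where several intervals lie together. Scores are the authors' own and are read only within a list.

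Members lay at MYC growth, splicing and ribosomal protein genes at higher shares than at acetylated genes at large. Of 21887 protein-coding genes, 2877 (13.1%) had a member within 1 kb of a start, and of the 12396 with ESC or MEF H3K27ac there, 2865 (23.1%). The lists were chosen with earlier results of these data in view, and since members lie at acetylated genes the 23.1% is the figure to read them against. MYC growth genes held members at 9 of 18 acetylated genes (50.0%, 95% Wilson interval 29.0 to 71.0), splicing factors at 25 of 66 (37.9%, 27.1 to 49.9), cytosolic ribosomal proteins at 30 of 83 (36.1%, 26.6 to 46.9) and mitochondrial ribosomal proteins at 27 of 76 (35.5%, 25.7 to 46.7), and these 4 intervals lay above 23.1%. Cell cycle genes (9 of 28, 32.1%, 17.9 to 50.7) and translation initiation factors (15 of 47, 31.9%, 20.4 to 46.2) had intervals that include it. So did Mediator, RNA polymerase II and TFIID subunits (17 of 65, 26.2%), fibroblast and mesenchymal genes (6 of 24, 25%), tRNA synthetases (5 of 20, 25%), oxidative phosphorylation (20 of 89, 22.5%), nuclear pore proteins (4 of 18, 22.2%), clock and nuclear receptor genes (4 of 18, 22.2%), autophagy and lysosome genes (5 of 23, 21.7%), the proteasome (8 of 37, 21.6%) and zinc finger genes with a Zfp number as name (62 of 324, 19.1%). Of the reprogramming factors, Sox2 had members and the other 2 acetylated genes had none. Pluripotency genes (2 of 22, 9.09%, 2.53 to 27.8) and the deacetylases other than HDAC3 (1 of 14, Sirt7, 7.14%, 1.27 to 31.5) also had intervals that include 23.1%. HOX genes had 0 of 27, with a 95% Wilson interval that ends at 12.5%. Epithelial genes (0 of 9), NCoR/SMRT complex genes (0 of 6) and regulators of other lineages (0 of 5) had no member within 1 kb. At these sizes their Wilson intervals end at 29.9%, 39.0% and 43.4%. Day 9 sites of any kind, members included, lay at 45 of 67 splicing, 48 of 86 cytosolic ribosomal, 44 of 77 mitochondrial ribosomal and 10 of 20 MYC growth genes, acetylated or not. Shares for NCoR-only, SMRT-only and shared sites were not computed for the lists, so no list is read as particular to members.

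**Figure D4:**
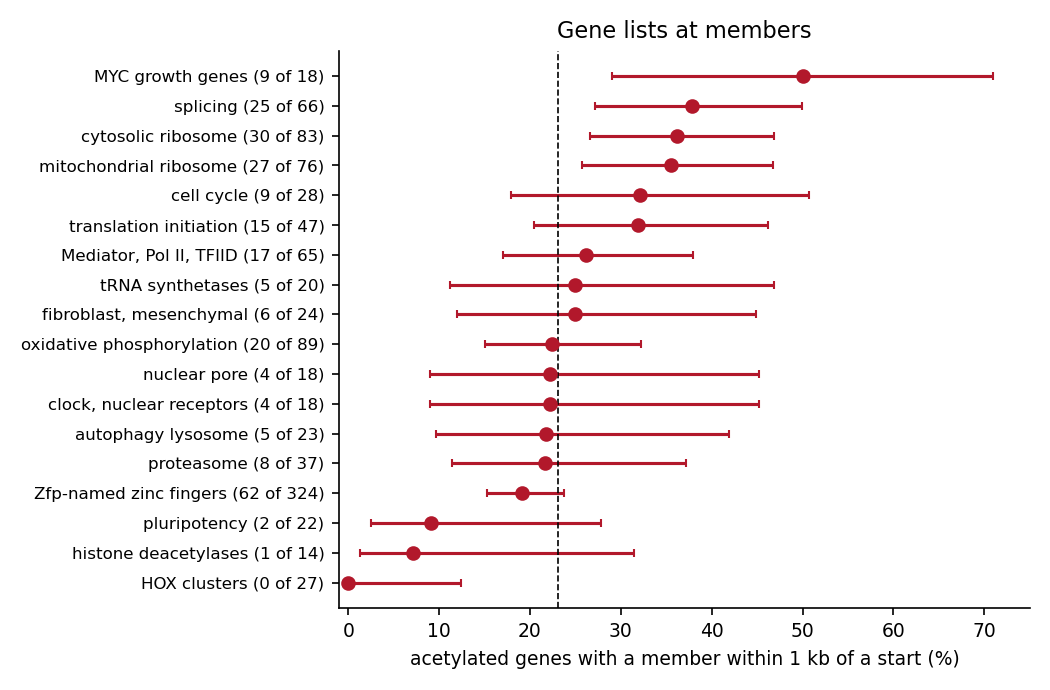
Percentage of acetylated genes of each list with a member within 1 kb of a start (x), with 95% Wilson intervals, for lists of at least 14 acetylated genes (y); the dashed line is the 23.1% of all acetylated genes. MYC growth genes are highest at 50.0% and HOX clusters are at 0.

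Members at MYC growth, ribosomal and initiation factor genes were acetylated in nearly every library. All 9 members at MYC growth genes and all 32 at cytosolic ribosomal protein genes had H3K27ac in all 6 OSKM lists. So did all 18 at translation initiation factor genes, 86.7% of all members and 76.9% of all day 9 sites. It was also true of all members at pluripotency (3), clock and nuclear receptor (4), tRNA synthetase (5) and nuclear pore (4) genes. The MYC growth genes with a member were Ncl, Gnl3, Nop56, Nop58, Nop16, Fbl, Ddx21, Wdr43 and Odc1, of which the first 8 act in the nucleolus or in ribosome assembly and the last makes polyamines. The Ncl member (chr1:86359220-86359419), centred 135 bp after the start, scored 200 in all 8 lists, as did 97 members in all. The Nop56 member (chr2:130274410-130274609) scored 200 in MEFs, 111 with HDAC3-YF and 81.9 with FLAG at day 5, 78.1 and 58.2 at day 9, 46.8 and 17.7 at day 13, and 200 in ESCs. Within its own list the Nop56 peak scored above 82.8% of intervals with HDAC3-YF and 73.9% with FLAG at day 5, 74.3% and 69.5% at day 9, then 79.6% and 54.6% at day 13.

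Eif3a, a subunit of the initiation factor that docks on the small ribosomal subunit, had a member centred at -2 bp (chr19:60790595-60790794) that scored 200 in all 8 lists. At Eif2s1, encoding the initiation factor subunit phosphorylated under stress, 3 members lay at -655, -228 and 141 bp and had the same H3K27ac scores. The Rps21 member scored 200 in MEFs, 176 with HDAC3-YF and 77.4 with FLAG at day 5, 57.5 and 71.5 at day 9, 42.2 and 31.8 at day 13, and 200 in ESCs. Mitochondrial ribosomal protein genes were the weaker of the ribosomal groups: 24 of their 28 members were in all 6 OSKM lists and 1 in none, and the median score at day 9 was 55.9 with HDAC3-YF and 47.5 with FLAG, against 200 and 197 at cytosolic ribosomal protein genes. Splicing factor genes had 28 members, 27 of them in all 6 lists, among them those at Hnrnph3 and Srsf7.

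Cell cycle genes with a member included barriers to reprogramming. Cdkn2a, Cdkn2b and Rb1, which restrain entry into the cycle, each had a member. Other cell cycle genes with a member were Mdm2, which degrades p53, and Aurka, Ccnb2, Ccne1, Cdk2 and Mcm6, which drive or license division. The Cdkn2a member (chr4:89294722-89294921), centred at -203 bp, scored 200 in MEFs, 93.8 with HDAC3-YF and 88.1 with FLAG at day 5, 66.7 and 111 at day 9, 27.5 and 32.2 at day 13, and 200 in ESCs. The Cdkn2b member (chr4:89310908-89311107), centred at 24 bp, scored 200 in MEFs, 47.2 and 61.0 at day 5, 31.7 and 37.5 at day 9, 34.1 and 11.5 at day 13, in the same order of arms, and 200 in ESCs. Both were acetylated in every library. The Mcm6 member, at a gene of the replicative helicase, scored 30.2 with HDAC3-YF and 20.0 with FLAG at day 5, 59.1 and 14.9 at day 9, then 23.2 and 7.21 at day 13. It scored above 57.4% of the intervals of its own list with HDAC3-YF and 43.2% with FLAG at day 5, 69.0% and 36.7% at day 9, then 60.8% and 6.92% at day 13.

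Clock genes with a member were Arntl, Per2, Nr1d2 and Tef. Nr1d2 encodes REV-ERB beta, a receptor that itself recruits NCoR, and its member (chr14:18238710-18238909) scored 200 in all 8 lists. The Per2 member was acetylated in MEFs and not ESCs and scored 200 in MEFs, 200 with both plasmids at day 5, 173 with HDAC3-YF and 200 with FLAG at day 9, then 28.8 and 200 at day 13. Among pluripotency genes, Klf2, a regulator of the naive state, had 1 member that scored 200 in MEFs, 8.36 with HDAC3-YF and 29.0 with FLAG at day 5, 52.9 and 25.3 at day 9, 22.9 and 16.4 at day 13, and 200 in ESCs. Sox2 had 2 members, at 526 and 953 bp after the start, with scores of 200 in all OSKM lists and in ESCs and 7.09 in MEFs. In ESCs the nearest H3K27ac centre lay at -532 bp from the first of these members, and in OSKM cultures at -69 to 14 bp from the second. Sox2 was among the introduced factors and has a single exon, so its own locus and the introduced copies cannot be told apart here.

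Fibroblast and mesenchymal genes differed between the arms at 1 gene a day, Fn1 at day 5 and Snai1 at days 9 and 13. By gene, 5 of 6 had a peak with HDAC3-YF and 6 of 6 with FLAG on each day, where 2.98% to 3.20% of all day 9 sites had a peak with FLAG alone. Their 8 members lay at Fbn1, Fn1, Runx1, Snai1, Twist1 and Vim; Snai1 and Twist1 had 2 each, and those of a gene had the same H3K27ac scores. A peak was within 1 kb at 7, 6 and 6 of the 8 with HDAC3-YF at days 5, 9 and 13, and at 8 of 8 with FLAG on each day. Snai1 encodes a repressor of epithelial genes, and its members (the second at chr2:167538659-167538858, 564 bp after the start) had no ESC peak and scored 200 in MEFs. At day 5 the Snai1 peak scored 12.5 with HDAC3-YF and 8.30 with FLAG; at days 9 and 13 there was none with HDAC3-YF, against scores of 14.3 and 10.5 with FLAG. These Snai1 FLAG peaks scored above only 35.4% of their list at day 9 and 32.1% at day 13. Fn1, encoding fibronectin, had no day 5 peak with HDAC3-YF and one of 37.3 with FLAG, above 57.9% of its list. Its scores were 17.1 and 20.0 at day 9 and 17.8 and 6.68 at day 13 in the same order. The 6.68 was the lowest score of the day 13 FLAG list, so the count of 6 of 6 there rests on a peak at the floor. The Fbn1 member, at the fibrillin gene, scored 200 in MEFs, 115 with HDAC3-YF and 119 with FLAG at day 5, 46.9 and 153 at day 9, then 14.9 and 63.4 at day 13. The Fbn1 peak scored above 83.4% of the intervals of its own list with HDAC3-YF and 80.6% with FLAG at day 5, 64.2% and 86.1% at day 9, then 46.2% and 87.6% at day 13. Vim, encoding vimentin, scored 178 with HDAC3-YF and 200 with FLAG at day 5, 128 and 200 at day 9, then 37.3 and 45.4 at day 13. The Vim peak scored above 89.3% of its list with HDAC3-YF and 88.1% with FLAG at day 5, 83.1% and 89.7% at day 9, then 74.5% and 81.6% at day 13. The Vim FLAG scores at days 5 and 9 were at the ceiling, and the lists differ in length, so no direction is read from these ranks. Twist1 scored 81.9 with HDAC3-YF and 87.4 with FLAG at day 5, 19.3 and 71.2 at day 9, then 38.1 and 58.0 at day 13. Runx1 scored 81.6 with HDAC3-YF and 60.2 with FLAG at day 5, 52.1 and 106 at day 9, then 11.2 and 18.2 at day 13. Beside these values, the MEF markers, of which Fbn1, Twist1 and Runx1 are members' genes too, held 23 H3K27ac peaks at 6 of 8 genes with HDAC3-YF and 16 at 8 of 8 genes with FLAG at day 5. They held 10 at 6 genes and 21 at 8 genes at day 9, then 10 and 14 at 7 genes each at day 13. The part of a different share of fibroblast-like cells in this result was not tested.

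Over all members the HDAC3-YF and FLAG shares were within 2 points of each other on each day. The HDAC3-YF minus FLAG share was -1.32 points at day 5 (95% interval -2.00 to -0.63), -1.52 at day 9 (-2.25 to -0.79) and 0.57 at day 13 (-0.33 to 1.47). A peak with HDAC3-YF and none with FLAG was found at 35 members (1.18%) at day 5, against a background of 1.32% of all day 9 sites, at 39 (1.32%, background 1.74%) at day 9 and at 101 (3.41%, background 3.58%) at day 13. The reverse was found at 74 (2.5%, background 2.98%), 84 (2.83%, background 3.10%) and 84 (2.83%, background 3.20%). Members were near this background and below it in both directions on each day. The background includes the members, which make up 49.6% of its sites, so part of the closeness is built in. By overlap of the intervals the differences were -2.26 points at day 5 (-3.77 to -0.75), -0.47 at day 9 (-2.01 to 1.07) and 2.09 at day 13 (0.46 to 3.73). With overlap of 50% the day 9 difference was 0.10, of the opposite sign. Counting the 3 days, 112 members (3.78%) had a peak in more HDAC3-YF than FLAG lists, 163 (5.50%) in more FLAG lists and 2689 in equal numbers. Of all day 9 sites, 4.34% and 6.40% did.

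A difference in the same direction at every day was rare. Only 2 members, at Pacc1 and near Nfib, had a peak in all 3 HDAC3-YF and no FLAG libraries (background 0.0502%), and 2, at Abhd6 and Gpatch1, had the reverse (background 0.100%). The Pacc1 member (chr1:191325973-191326172), at a proton-activated chloride channel gene, scored 11.0, 7.40 and 7.11 at days 5, 9 and 13 with HDAC3-YF and had no peak with FLAG. The member near Nfib (chr4:82513258-82513457), 6607 bp from this gene of the NFI transcription factors, scored 17.96, 7.78 and 8.50 with HDAC3-YF and had none with FLAG. The Abhd6 member (chr14:8002938-8003137), at a monoacylglycerol hydrolase gene, had no peak with HDAC3-YF and scored 15.4, 7.91 and 19.2 with FLAG. The Gpatch1 member (chr7:35318195-35318394) had none with HDAC3-YF and scored 11.6, 14.1 and 9.24 with FLAG. All of these scores lay below the median of their lists, which was 15.7 to 26.4, except the day 13 FLAG score at Abhd6.

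The members acetylated at only 1 end of the reprogramming path varied most. MEF-alone members had a peak at day 5 in 47 of 88 with HDAC3-YF and 54 with FLAG, at day 9 in 42 (47.7%) and 56 (63.6%), and at day 13 in 48 and 53. The difference was -7.95 points at day 5 (-16.4 to 0.51), -15.9 at day 9 (-26.3 to -5.52) and -5.68 at day 13 (-17.2 to 5.83). ESC-alone members had a peak at day 5 in 19 of 60 with HDAC3-YF and 20 with FLAG, at day 9 in 23 and 20, and at day 13 in 35 (58.3%) and 28 (46.7%). The difference was -1.67 points at day 5 (-11.5 to 8.12), 5.00 at day 9 (-6.71 to 16.7) and 11.7 at day 13 (-2.26 to 25.6). More HDAC3-YF than FLAG lists held 10 of the MEF-alone members and more FLAG lists 29; of the ESC-alone members 19 were in more HDAC3-YF and 8 in more FLAG lists. Of all day 9 sites 4.34% were in more HDAC3-YF and 6.40% in more FLAG lists. These members were at a gene less often than members at large, 56.8% of the MEF-alone and 56.7% of the ESC-alone against 89.5%. By overlap the ESC-alone difference at day 13 was 1.67 points and the MEF-alone difference -13.6 at day 9 and 0 at day 13. Within 2 kb the day 13 differences were 18.3 points (5.69 to 31.0) for ESC-alone and -11.4 (-22.5 to -0.26) for MEF-alone members. At day 13 the ESC markers held 6 H3K27ac peaks with HDAC3-YF and 6 with FLAG. The 4 epithelial markers (Cdh1, Epcam, Cldn3 and Cldn4) held 10 and 5 at day 13, and the MEF markers 10 and 21 at day 9. The part of such marker differences in these values was not tested. For the 2816 members acetylated in both cell types the differences were -1.10, -1.21 and 0.53 points.

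**Figure D5:**
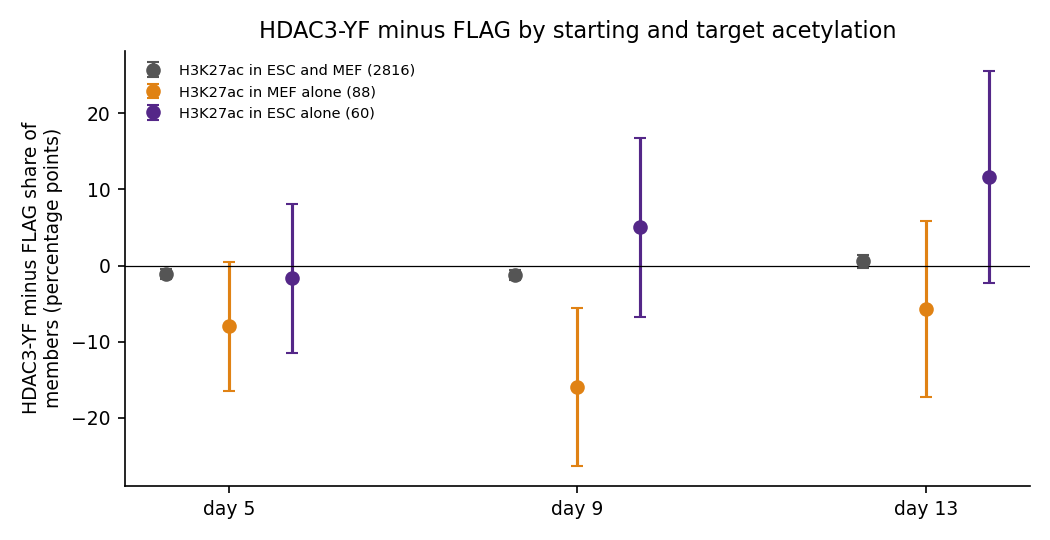
HDAC3-YF minus FLAG share of members with an H3K27ac peak within 1 kb (y, percentage points) at days 5, 9 and 13 (x), for members acetylated in ESCs and MEFs, in MEFs alone and in ESCs alone; bars are 95% intervals from sites marked in 1 library of a day only. MEF-alone members are lowest at day 9, at -15.9 points, and ESC-alone members highest at day 13, at 11.7 points.

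Of the MEF-alone members, 19 (21.6%, where 3.10% of all day 9 sites did) had a day 9 peak with FLAG and none with HDAC3-YF, of which 10 lay at 9 genes: Snai1 (2), Mical2, Mrc2, Nedd9, Rgs2, Papss1, Tcaf1, Arhgef18 and Tom1l1. Mical2 acts on actin filaments, Mrc2 is a collagen receptor and Nedd9 an adhesion scaffold. The Mical2 member (chr7:112225512-112225711), centred at -224 bp, scored 97.0 in MEFs and had no peak with HDAC3-YF at any day, against scores of 11.8 at day 5 and 8.41 at day 9 with FLAG. The reverse day 9 pattern was found at 5 members (5.68%, where 1.74% of all day 9 sites did), 3 of them at Klhl36, Slc4a8 and Sufu. In both arms at day 9 were 37, among them those at Fbn1, Cd44, Cavin1, Id1, Per2 and Wls. Of the ESC-alone members, 13 (21.7%, where 3.58% of all day 9 sites did) had a day 13 peak with HDAC3-YF and none with FLAG, of which 10 lay at Bmp8a, Kbtbd7, Mtus2, Pclo, Rab39, Ryr2, Sec31b, Tagln2, Tmem163 and Tmod2. The reverse was found at 6 (10.0%, where 3.20% of all day 9 sites did), 3 of them at Gnai2, Misp3 and Zmiz1. The genes of these groups were listed after their values were seen. Most of these peaks scored low. Of the genes named, only Mrc2 (25.8), Papss1 (38.6) and Rgs2 (30.6) exceeded the day 9 FLAG list median of 24.2. Only Bmp8a (23.4) and Tagln2 (38.0) exceeded the day 13 HDAC3-YF list median of 16.5, and Ryr2 was lowest at 6.98. The named peaks of the reverse patterns lay below their list medians too, except Gnai2 (17.4 against 15.7).

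The 35 members with no OSKM peak included Mmachc, Cfap99, Zfp661, Arhgef6, Mkx and Bbs1. Mkx encodes a tendon homeobox factor and its member scored 11.0 in MEFs, and Mmachc, of cobalamin metabolism, scored 36.8 in MEFs and 38.9 in ESCs. Of the 35, 22 had a MEF peak, with scores of 6.26 to 200 (median 16.2), 2 of them above the list median of 37.7, and 23 had an ESC peak, with scores of 7.19 to 200 (median 15.7), 8 of them above the list median of 35.8. At the other end, Tmem131, Ino80d, Ncl, Phlda3, Cox20, Efcab2, Pcmt1, Tab2 and Bclaf1 had members at 200 in all 8 lists, named in order of chromosome since 97 members shared that value. Among the genes with the most members in the gene body and 20 kb around it, 4 each, were Stx5a, Thumpd3, Lmna, Zfp341 and Ggnbp2.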

How the data were processed

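The 13 libraries came from 13 groups, 1 each, and 12 deposited peak lists were used; the ESC input was not analysed here. Per the submitters' processing notes the authors used Bowtie2 2.2.0, MACS 1.4 and mm10; settings are not given in the sources used here. Every interval is 200 bp wide. The deposited score has no stated scale: H3K27ac scores end at 200, and NCoR and SMRT scores are signed and shared by both lists. Per-sample depth is unknown.

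Day 9 NCoR and SMRT intervals were merged where they overlapped by 1 bp. H3K27ac was assigned where its centre lay within 1 kb. Shares carry 95% Wilson intervals, unpaired differences Newcombe intervals and HDAC3-YF minus FLAG differences intervals from sites marked in 1 library of a day, for counting error only. RefSeq GRCm38.p6 gave starts for 17492 of 21887 protein-coding genes; for the other 4395 both annotated ends were used, with distances in genome direction. Interval code was tested on simulated data (Python 3.11.15, pandas 2.3.3, SciPy 1.17.1).

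Members, gene lists and motifs were chosen with earlier results of these data known. Named genes are those of each list with most OSKM peaks and nearest the start (up to 6), members with opposite presence in all 3 days (2 days where under 5), the 10 highest summed scores, up to 6 without OSKM peaks, the 5 at each score end, up to 5 with most members, and 5 each side of the 1 kb limit; others were named after their values were seen. No genome sequence of the sites was used.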

Additional observations from a re-analysis of the deposited data

Results flagged for a closer look

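Signs differed between days and between classes of members; none of these differences between differences was tested. Over all members the HDAC3-YF minus FLAG share was 0.57 points at day 13, against -1.32 at day 5 and -1.52 at day 9. At day 9 it was -15.9 points for members acetylated in MEFs alone and 5.00 for those acetylated in ESCs alone. At day 13 it was -5.68 points for the MEF-alone members and 11.7 for the ESC-alone members. At day 9, MEF marker genes held 10 H3K27ac peaks with HDAC3-YF and 21 with FLAG, and epithelial markers 8 and 4. At day 13, MEF markers held 10 and 14, epithelial markers 10 and 5, and ESC markers 6 and 6. Their part in these differences was not tested.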

How the results depend on the processing

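No paired analysis was possible because each group has 1 library. The number of members stayed within 1.5 times 2964 under every other definition, from 2387 without any ESC co-repressor centre within 1 kb to 2995 with ESC or MEF H3K27ac within 2 kb. Shares in OSKM libraries moved most with how a peak was assigned. In the order day 5, 9 and 13, HDAC3-YF before FLAG, they were 52.6%, 54.9%, 54.5%, 55.0%, 54.6% and 52.5% by overlap of 1 bp, 27.5%, 29.7%, 29.6%, 29.5%, 30.0% and 28.1% by overlap of 50%, and 80.9%, 82.6%, 80.5%, 83.0%, 79.8% and 78.1% with the top 50% of each list. With the 14251 highest-scoring peaks of each list they left the interval at day 5 with HDAC3-YF (91.5%) and at days 9 and 13 with FLAG (93.9% and 92.5%). With members acetylated in both ESCs and MEFs they were 95.8%, 96.9%, 96.4%, 97.6%, 96.1% and 95.6%. HDAC3-YF minus FLAG was -2.26, -0.47 and 2.09 points by overlap of 1 bp, and -2.13, 0.10 and 1.92 by overlap of 50%, where day 9 changed sign. It was -2.43 at day 9 and 1.69 at day 13 with the top 50% of each list, and -2.36 at day 5 and 1.55 at day 13 with equal numbers of peaks; the cause was not tested. The share at a gene was 91.3% for members acetylated in both and 91.6% within 2.5 kb, where epithelial and complex genes had 1 member gene each, against 0. For MEF-alone members at day 9 the difference stayed between -17.0 and -12.5 points in 3 alternatives chosen after seeing the data. For ESC-alone members at day 13 it was 1.67 points by overlap, 13.3 with equal numbers of peaks and 18.3 within 2 kb, and at day 5 it was -11.7 with equal numbers and 1.67 within 2 kb. Depth is unknown and limits all of these.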

Other observations

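The X chromosome was nearly free of members. It held 13 of the 2964, and 15 of its 380 acetylated genes (3.95%) had a member within 1 kb of a start, against 18.8% to 28.4% on the autosomes. X-linked intervals made up 0.50% of the day 9 NCoR list, 0.47% of the day 9 SMRT list, 0.22% of the ESC NCoR list and 0.23% of the ESC SMRT list, while they made up 1.59% to 2.31% of the H3K27ac lists.

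Genes with ESC or MEF H3K27ac and a member had H3K27ac in OSKM cultures more often than acetylated genes with no co-repressor site. At day 9 with HDAC3-YF, 95.8% of 2865 genes with a member and 64.4% of 6185 without a site had a peak within 1 kb of a start, and with FLAG 97.0% and 66.8%. HDAC3-YF minus FLAG was -1.50, -1.15 and 0.56 points at days 5, 9 and 13 at genes with a member, and -3.40, -2.36 and 1.91 points at genes without a site. Genes with a member also had higher scores in their best peak, with a median of 200 in MEFs against 129 at genes without a site.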
